A study of Mus musculus with 12 samples.

Results

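A group of 9 genes that had counts in every library of the CtrV line and almost none in the EKO-labelled line was examined, 9 of the 55401 genes in the count table. They are Myb, Ptf1a, Sh3kbp1, Arhgap32, Slc8a2, Pcdh20, Hnmt, Prelid2 and Kbtbd11. They were chosen by that difference between the lines, so their levels in the lines are a description and are not tested. The choice was not exhaustive, and other genes with the same pattern are named further on.

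The data are bulk RNA sequencing of Sp37A3, an immature dendritic cell line from mouse spleen, grown with murine GM-CSF and M-CSF. The 12 libraries form 4 groups of 3. CtrV cells carry an empty vector and are labelled as expressing Siglec-E, and EKO cells were transduced with a CRISPR vector against Siglece and are labelled as its knockout. Cells of each line were either unpulsed or pulsed with the protein antigen ovalbumin (OVA), and all 4 groups received lipopolysaccharide (LPS), with 24 h before RNA isolation. Each line is a model in 1 cell line, made by lentiviral transduction. The paper describes the EKO line as a pool of several single-cell clones selected for little or no Siglec-E. Whether the CtrV cells also passed through single-cell clones is not stated. Whether cultures with the same replicate number were handled together is not stated, so p-values measure the spread between these cultures.

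Siglec-E is an inhibitory receptor for sialic acids. Siglece mRNA did not separate the lines in the way the labels name: the CtrV libraries held 150 to 163 CPM (counts per 1e6 counts of the library, with totals scaled by TMM) and the EKO-labelled libraries 166 to 235 CPM. Its reads do not check the loss of the protein, and the libraries are therefore called EKO-labelled. Each library held between 27116201 and 39698572 counts in total. In these, 3 counts corresponded to 0.0784 to 0.110 CPM, so lower levels are at the limit of this depth. Of 13 dendritic cell markers, 12 passed the expression filter, and their summed level was 29720 to 32622 CPM in CtrV libraries and 27061 to 29427 CPM in the EKO-labelled ones. Cd74 makes up most of that sum, and single markers went both ways. Itgae was at 77.6 to 107.5 CPM in CtrV libraries and 1.19 to 1.71 CPM in the EKO-labelled ones and Cst3 at 6225 to 6883 and 3116 to 3281 CPM, whereas Irf8 was at 79.99 to 117 and 177.5 to 295 CPM, and H2-Aa, H2-Ab1, Batf3 and Xcr1 were also higher in every EKO-labelled library. Clec9a had at most 1 count in any library and Flt3 stayed at or under 7.84 CPM. Summed levels of 7 macrophage or monocyte markers, of which 6 were tested, were 1368 to 1550 CPM and 1927 to 2111 CPM in the same order. None of the T cell, B cell, neutrophil, mast cell, erythroid or fibroblast markers passed the filter, and no list of these summed to more than 1.07 CPM in a library. The part of these marker differences in the results below was not tested.

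Replicate 1 of the EKO-labelled line stood apart from replicates 2 and 3 in both pulsing conditions. The chi-square per degree of freedom between counts of a pair of EKO-labelled libraries was 21.8 to 38.3 for pairs with replicate 1. It was 6.49 and 10.2 for the pairs without replicate 1. Such a deviation was not particular to the EKO-labelled line. In unpulsed CtrV cells the pairs with replicate 3 gave 21.78 and 20.03, and the pair without it gave 4.292. The OVA-pulsed CtrV pairs gave 12.22, 17.91 and 6.897. Within the fits of both lines, CtrV libraries were left out only 1 at a time. Without both EKO-labelled libraries of replicate 1, a choice made after seeing the data, 10 of the called neighbours and pathway genes lost their call, none changed direction and 4 others gained one. Named genes whose call changed are marked beside their values, except the pseudogene Rps3a2 near Pcdh20, which lost its call.

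The 9 genes serve different purposes in other tissues. Myb is a transcription factor of blood progenitors that is normally shut down as myeloid cells mature, and Ptf1a is a basic helix-loop-helix (bHLH) factor of the pancreas and of certain neurons. Sh3kbp1 is an adaptor that joins Cbl ubiquitin ligases to receptors being internalised, Arhgap32 is a GTPase-activating protein, Slc8a2 is a sodium-calcium exchanger best known from brain, Pcdh20 is an adhesion protein of the cadherin superfamily, and Hnmt inactivates histamine by methylation. Prelid2 belongs to a family that includes mitochondrial lipid transfer proteins, and Kbtbd11 belongs to the Kelch and BTB domain proteins, several of which are substrate adaptors of the Cul3 ubiquitin ligase.

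The genes lie on 8 chromosomes, and only chromosome 2 holds more than 1 of them. Their spans ranged from 1.84 kb for Ptf1a to 350.8 kb for Sh3kbp1. RefSeq promoter windows of GRCm38.p6 were found for 7 of the 9, in 12 windows. Prelid2 and Kbtbd11 had no entry. The 250 bases before the start of 4 genes are given here because they span the range of CG dinucleotide content among these 7 and include the genes with the highest levels. Each is written 5′ to 3′ on the strand of the gene, with every CG dinucleotide in capitals. Myb is at chr10:21160985-21161234 on the minus strand, Sh3kbp1 at chrX:159627022-159627271 on the plus strand, Slc8a2 at chr7:16129576-16129825 on the plus strand and Hnmt at chr2:24049380-24049629 on the minus strand.
Myb: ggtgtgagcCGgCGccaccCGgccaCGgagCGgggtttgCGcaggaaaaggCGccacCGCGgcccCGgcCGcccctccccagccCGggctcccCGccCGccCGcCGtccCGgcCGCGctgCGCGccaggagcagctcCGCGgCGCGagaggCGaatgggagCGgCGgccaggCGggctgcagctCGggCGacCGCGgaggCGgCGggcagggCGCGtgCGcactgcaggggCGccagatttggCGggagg
Sh3kbp1: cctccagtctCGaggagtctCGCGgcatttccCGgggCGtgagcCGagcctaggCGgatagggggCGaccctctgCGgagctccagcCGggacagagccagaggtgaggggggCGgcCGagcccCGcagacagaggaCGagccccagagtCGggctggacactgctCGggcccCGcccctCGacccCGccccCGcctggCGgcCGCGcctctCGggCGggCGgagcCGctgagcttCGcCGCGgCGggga
Slc8a2: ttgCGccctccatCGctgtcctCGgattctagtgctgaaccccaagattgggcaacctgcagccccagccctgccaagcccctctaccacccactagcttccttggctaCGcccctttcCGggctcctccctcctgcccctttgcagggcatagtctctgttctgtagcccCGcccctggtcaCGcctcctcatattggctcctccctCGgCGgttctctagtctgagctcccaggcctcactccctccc
Hnmt: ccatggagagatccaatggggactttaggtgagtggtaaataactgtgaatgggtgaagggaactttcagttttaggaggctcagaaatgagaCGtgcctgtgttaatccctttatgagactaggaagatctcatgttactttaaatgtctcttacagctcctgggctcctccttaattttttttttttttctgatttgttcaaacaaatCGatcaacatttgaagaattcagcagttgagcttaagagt
These upstream sequences held 40 CG dinucleotides for Myb, 31 for Sh3kbp1, 9 for Slc8a2 and 2 for Hnmt. The 4 were picked to span this range, so the difference between them follows from the choice. For Sh3kbp1 the first of several alternative windows is shown, and the upstream bases of its windows 3 and 4 held 4 and 2.

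In the EKO-labelled line the 9 genes together had 111 counts over 6 libraries, against 38965 in the 6 CtrV libraries. Of the 54 combinations of a gene with an EKO-labelled library, 27 held no count and 40 held at most 1. For all 9 genes every EKO-labelled library lay below every CtrV library, which is what the choice of the genes required. The share of all tested genes with such a separation was not counted. By a different measure, 29.1% of the 14079 tested genes were called lower in EKO-labelled cells at an adjusted p under 0.05 (edgeR quasi-likelihood test). The remaining counts lay in both pulsing conditions and in every replicate number. The libraries of EKO replicate 1 held 35 of the 111 counts and those of replicates 2 and 3 held 76. In bulk RNA, fewer cells that express a gene and less RNA of it per cell cannot be told apart.

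**Figure D1:**
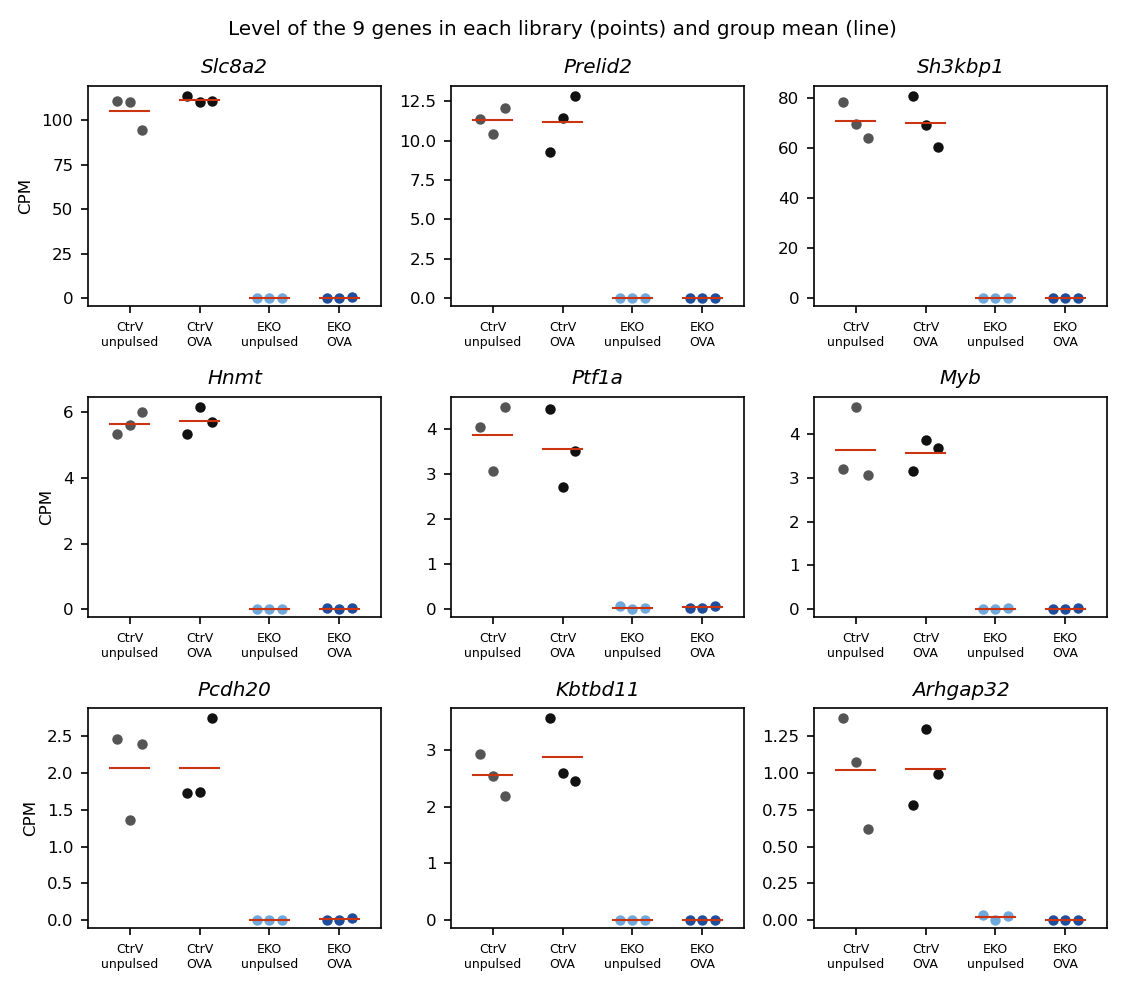
Level of each of the 9 genes in CPM (linear axes from 0, a separate scale for each gene) in the 12 libraries, with points for libraries in the order of replicates 1 to 3 and a line for the group mean. The CtrV points lie well above 0 in both pulsing conditions, from 0.618 CPM for the lowest Arhgap32 library to 114 CPM for the highest Slc8a2 library, and no EKO-labelled point exceeds 0.491 CPM.

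Both transcription factors were expressed at a few CPM in CtrV cells. Myb (ENSMUSG00000019982, minus strand of chromosome 10, bases 21124935 to 21160984 of GRCm38) had 91, 129 and 89 counts in unpulsed and 117, 128 and 111 in OVA-pulsed CtrV cells. The EKO-labelled libraries had 0, 0 and 1 unpulsed and 0, 0 and 1 OVA-pulsed. No EKO-labelled library reached more than a single Myb read, and the CtrV cells kept a mean of 3.59 ± 0.592 CPM (SD, n = 6). Scaled by library size, the EKO-labelled sum was 0.291% of that in CtrV cells, with an exact interval of 0.0351% to 1.05%. This interval and those for the other genes are at 95% and cover counting error only.

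Ptf1a (ENSMUSG00000026735, plus strand of chromosome 2, bases 19445663 to 19447501) had 115, 86 and 131 counts in unpulsed CtrV cells and 165, 90 and 106 in OVA-pulsed ones. It had 2, 0 and 1 counts in unpulsed and 1, 1 and 2 in OVA-pulsed EKO-labelled cells. Its share was 0.976% (0.391% to 2.02%) of the CtrV level, which was 3.72 ± 0.737 CPM (SD, n = 6). Of its exonic bases 40.4% overlap Ptf1aos, an antisense transcript, which itself had 1 to 6 counts in each CtrV library and 0 in each EKO-labelled library. The antisense gene was thus at the bottom of the range and had the same direction by count. The strand setting of the counting is not given in the sources used here, and without strand reads of the pair cannot be told apart. For Myb the overlap with an antisense gene was 6.26%, and that gene, Gm26577, had no count in any library.

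Relatives and partners of these factors that passed the expression filter moved in both directions. Of 14 genes of the Myb family and its partners, 11 were tested, 3 were lower in EKO-labelled cells, 2 were higher and 6 did not pass the test, with a median log2 difference of 0.06 beside -0.002 over all tested genes. The lowest was Cebpa, a factor of myeloid differentiation, at 17.5 ± 2.09 CPM in CtrV libraries and 8.32 ± 0.840 CPM in the EKO-labelled ones (SD, n = 6; log2 difference -1.07, SE 0.07, edgeR adjusted p = 4.46e-07). Ets2, a factor of the ETS family, was the highest at 72.6 ± 1.94 and 120.1 ± 13.3 CPM. Mybl1 and Mybl2, the paralogs of Myb, were lower by modest amounts, with log2 differences of -0.30 and -0.41. Across all tested genes 31.3% were called higher.

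Of 20 genes known as Myb targets in other cells, 13 were tested, 5 were lower and 7 higher, with a median log2 difference of 0.17. Gata3, a factor of lymphoid cells, was the lowest, at 34.3 ± 2.37 CPM in CtrV libraries and 15.5 ± 1.92 CPM in the EKO-labelled ones (log2 difference -1.15, SE 0.04, edgeR adjusted p = 5.68e-09). Ptgs2, the inducible prostaglandin synthase, was the highest, at 2.06 ± 0.848 and 66.0 ± 16.8 CPM (log2 difference 4.97, SE 0.18, edgeR adjusted p = 4.18e-09). Myc and Ccnb1, which drive growth and entry into mitosis, were lower, and Bcl2 and Cdk6, which act in survival and the cell cycle, were higher. Without the replicate number in the model Bcl2 did not pass (edgeR adjusted p = 0.0826). The list as a whole moved in both directions.

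Among 16 partners of Ptf1a and related bHLH factors, 7 were tested, 2 were lower and 4 higher. Rbpj, with which Ptf1a forms its complex in the pancreas, was abundant in both lines at 739.7 ± 47.5 and 797.8 ± 33.2 CPM and did not pass the test (edgeR adjusted p = 0.0730), although it did without EKO replicate 1 (log2 difference 0.18, edgeR adjusted p = 0.00394). Id2, an inhibitor of bHLH factors that dendritic cells use, was the lowest of the list at 469.0 ± 12.3 CPM in CtrV libraries and 271.8 ± 14.2 CPM in the EKO-labelled ones. Id3, of the same inhibitor family, was the highest, with a log2 difference of 1.30 (SE 0.14).

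Sh3kbp1 was one of the most abundant of the 9 genes and Arhgap32 the least. Sh3kbp1 (ENSMUSG00000040990, plus strand of chromosome X, bases 159627272 to 159978069) had 2233, 1950 and 1871 counts in unpulsed and 2999, 2300 and 1825 in OVA-pulsed CtrV cells. In EKO-labelled cells it had 2, 3 and 4 counts unpulsed and 6, 4 and 5 OVA-pulsed, so a few reads were present in every library. The level was 70.6 ± 7.97 CPM in CtrV cells (SD, n = 6), and the EKO-labelled sum was 0.176% of it (0.113% to 0.262%), a 568-fold ratio with a counting interval of 381.7 to 887.

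Arhgap32 (ENSMUSG00000041444, plus strand of chromosome 9, bases 32116136 to 32268446) had 39, 30 and 18 counts in unpulsed and 29, 43 and 30 in OVA-pulsed CtrV cells. Unpulsed EKO-labelled cells had 1, 0 and 1 counts and OVA-pulsed ones none. With 2 counts in all, the EKO-labelled share of 1.02% has a wide interval of 0.123% to 3.75%. The CtrV level of 1.02 ± 0.291 CPM was close to the expression filter, and Arhgap32 is the gene for which the depth limits the description most.

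Most partners of Sh3kbp1 were well expressed in both lines. Of 19 listed, 15 were tested, 5 were lower and 7 higher, with a median log2 difference of 0.06. Cd2ap, the paralog of Sh3kbp1, was at 87.7 ± 4.50 CPM in CtrV libraries and 98.2 ± 2.26 CPM in the EKO-labelled ones (SD, n = 6; log2 difference 0.16, SE 0.03, edgeR adjusted p = 0.00201). Cbl, the ligase that Sh3kbp1 binds, was at 388.5 ± 60.6 and 403.8 ± 55.3 CPM and did not pass the test. Blnk, an adaptor of B cell receptor signalling, was the highest of the list with a log2 difference of 1.67 (SE 0.14), and Dab2, an endocytic adaptor, the lowest with -0.57 (SE 0.09).

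Slc8a2 had the highest level of the 9 genes, and Pcdh20 one of the lowest. Slc8a2 (ENSMUSG00000030376, plus strand of chromosome 7, bases 16129826 to 16161063) had 3157, 3086 and 2751 counts in unpulsed and 4215, 3653 and 3351 in OVA-pulsed CtrV cells. EKO-labelled cells had 11, 10 and 12 counts unpulsed and 10, 11 and 16 OVA-pulsed. Slc8a2 was thus seen in every EKO-labelled library at about the same low level, and the sum of 70 counts was 0.335% (0.261% to 0.423%) of the CtrV level of 108.5 ± 7.02 CPM (SD, n = 6). The ratio between the lines was 299-fold, with a counting interval of 236 to 383.

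Pcdh20 (ENSMUSG00000050505, minus strand of chromosome 14, bases 88464743 to 88471396) had 70, 38 and 70 counts in unpulsed and 64, 58 and 83 in OVA-pulsed CtrV cells. A single read was seen in the EKO-labelled line, in 1 OVA-pulsed library. The CtrV level was 2.08 ± 0.539 CPM (SD, n = 6), and the EKO-labelled share was 0.252% (0.00637% to 1.41%). None of the 11 other delta protocadherins and relatives on the list passed the expression filter, and Pcdh20 passed it through its level in CtrV cells. Below the filter and not tested, Pcdh15 averaged 0.211 CPM in CtrV libraries and 0.00435 CPM in the EKO-labelled ones. Pcdh10 went the other way, at 0.0857 and 0.317 CPM.

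Of the 12 listed sodium-calcium exchangers and plasma membrane calcium pumps, 4 were tested, 2 lower and 2 higher. Slc8a1, the exchanger of heart and many other tissues, was at 89.9 ± 8.96 CPM in CtrV libraries and 76.8 ± 14.3 CPM in the EKO-labelled ones (SD, n = 6; log2 difference -0.24, SE 0.07, edgeR adjusted p = 0.0110, and 0.119 without the replicate number in the model). Slc8b1, the mitochondrial exchanger, was the lowest at -1.32 (SE 0.06), and Atp2b4, a calcium pump, the highest at 0.50 (SE 0.10). Transcripts of another exchanger of the Slc8a type were present in both lines.

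The remaining genes are the histamine-methylating enzyme Hnmt and 2 genes described here by their families, Prelid2 and Kbtbd11. Hnmt (ENSMUSG00000026986, minus strand of chromosome 2, bases 24002910 to 24049394) had 152, 157 and 175 counts in unpulsed and 198, 204 and 172 in OVA-pulsed CtrV cells. It had 2 counts in the EKO-labelled line, 1 in each of 2 OVA-pulsed libraries. The CtrV level was steady at 5.69 ± 0.334 CPM (SD, n = 6), and the EKO-labelled share was 0.183% (0.0221% to 0.662%).

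Prelid2 (ENSMUSG00000056671, minus strand of chromosome 18, bases 41875600 to 41951242) had 323, 292 and 352 counts in unpulsed and 344, 378 and 387 in OVA-pulsed CtrV cells. Each unpulsed EKO-labelled library had 1 count and the OVA-pulsed ones none. The share was 0.140% (0.0288% to 0.409%) of a CtrV level of 11.2 ± 1.24 CPM (SD, n = 6).

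Kbtbd11 (ENSMUSG00000055675, plus strand of chromosome 8, bases 15011025 to 15033333) had 83, 71 and 64 counts in unpulsed and 132, 86 and 74 in OVA-pulsed CtrV cells. It had no count in any of the 6 EKO-labelled libraries. Against a floor of 3 counts over those libraries it was at least 176-fold lower, or at most 0.569% of the CtrV level of 2.71 ± 0.479 CPM (SD, n = 6). This floor is a setting and not a 95% interval. The exact 95% upper limit for 0 counts is 3.69 counts, which gives a weaker bound. Of its exonic bases 24.8% overlap Gm37844 on the opposite strand, which had 0 to 3 counts in CtrV libraries and 0 in EKO-labelled ones.

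Of 14 genes of histamine synthesis, reception and removal, 6 were tested, 2 lower and 1 higher. Hdc, which makes histamine, was at 14.6 ± 1.52 and 13.6 ± 1.99 CPM and did not pass the test. Hrh1, a histamine receptor, was lower, at 10.3 ± 1.56 CPM in CtrV libraries and 4.62 ± 1.01 CPM in the EKO-labelled ones (SD, n = 6; log2 difference -1.16, SE 0.07, edgeR adjusted p = 2.31e-07). Aldh7a1, an aldehyde dehydrogenase, was the highest at 0.32 (SE 0.05).

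All 9 listed genes of the Prelid family and its partners were tested, with 3 lower and 4 higher. Those called lay between Prelid1 at a log2 difference of -0.49 (SE 0.04) and Pisd, which makes phosphatidylethanolamine in mitochondria, at 0.25 (SE 0.03). Prelid3a, at 0.36 (SE 0.18), did not pass the test. Of 10 genes of the Kbtbd family with Cul3 and Rbx1, 8 were tested, none was lower and 3 were higher, from Kbtbd2 at 0.14 (SE 0.04) to Kbtbd7 at 0.56 (SE 0.10). Kbtbd2 did not pass without the replicate number in the model (edgeR adjusted p = 0.0958). Cul3, the ubiquitin ligase scaffold, was at 161.5 ± 6.72 and 154.0 ± 4.30 CPM and did not pass the test. No relative of Prelid2 or Kbtbd11 on the lists approached the difference of the 2 genes themselves.

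Enzymes of DNA methylation and of the Polycomb system, which are general regulators of gene silencing, were listed because the genes were near silence in 1 line. Of 20, 19 were tested, 7 were lower and 6 higher, with a median log2 difference of -0.01. Tet1, a 5-methylcytosine oxidase, was the lowest at 0.965 ± 0.422 CPM in CtrV libraries and 0.130 ± 0.0296 CPM in the EKO-labelled ones (SD, n = 6; log2 difference -2.83, SE 0.26, edgeR adjusted p = 4.85e-06). Tet2, of the same family, was the highest at 43.3 ± 14.1 and 99.7 ± 17.1 CPM (log2 difference 1.25, SE 0.12, edgeR adjusted p = 7.11e-06). Dnmt1 and Dnmt3a, the main methyltransferases, were lower, with log2 differences of -0.20 and -0.18. Dnmt3a did not pass without EKO replicate 1 (edgeR adjusted p = 0.101) or without the replicate number in the model (edgeR adjusted p = 0.0527). The part of these enzymes in the levels of the 9 genes was not tested.

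Taking the pathway lists as 1 set, 122 of 181 listed genes were tested. Of these 38, or 31.1%, were lower and 46, or 37.7%, were higher, beside 29.1% and 31.3% of all tested genes. The median log2 difference was 0.05. With a limit of 1 on the absolute log2 difference as well, 6 were lower and 9 higher.

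Levels of different genes can be compared only per length. In CtrV cells the median CPM per kb of exon was 21.03 for Slc8a2 (17.9 to 21.6 over 6 libraries), 9.69 for Prelid2 (7.90 to 10.9), 6.89 for Sh3kbp1 (5.98 to 8.01), 3.20 for Hnmt (3.02 to 3.48) and 2.51 for Ptf1a (1.80 to 2.98). It was 0.385 for Myb (0.342 to 0.516), 0.378 for Pcdh20 (0.247 to 0.501), 0.360 for Kbtbd11 (0.308 to 0.499) and 0.0601 for Arhgap32 (0.0360 to 0.0799). Slc8a2 and Arhgap32 stood apart at the ends of this order. The ranges of Prelid2 and Sh3kbp1 overlapped, and so did those of Myb, Pcdh20 and Kbtbd11, so the order inside these groups is not resolved. The low CPM of Prelid2 beside Sh3kbp1 goes with its shorter exons, 1175 against 10100 bases.

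The spread among CtrV cultures was compared with counting error. The coefficient of variation over the 6 CtrV libraries was 6.47% for Slc8a2, where counting alone gives 1.72%, and 11.3% for Sh3kbp1, where it gives 2.13%. Hnmt was the only one of the 9 whose variation, 5.86%, did not exceed the 7.53% of counting. The least expressed genes varied most, with 28.5% for Arhgap32 and 26.0% for Pcdh20, against 17.8% and 12.5% from counting. In these CtrV cells the libraries of Sh3kbp1 differed by replicate number, with replicate 1 the highest and replicate 3 the lowest in both pulsing conditions. Kbtbd11 had the same order, with 2.92, 2.54 and 2.20 CPM unpulsed and 3.56, 2.60 and 2.45 CPM OVA-pulsed.

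How far the 9 genes stand out was described with a limit on near silence. It asked for at least 20 counts in every library of one line and a mean CPM in the other line of at most 1/32 of that level. Among 13558 genes with enough counts in CtrV libraries, 22 genes or 0.162% met it in the EKO-labelled line, 8 of the 9 among them. Arhgap32 missed it through the CtrV library with 18 counts. In the opposite direction 4 of 13569 genes, or 0.0295%, met it, namely Mpp2, Arhgap10, Ccbe1 and Ptgs2. More genes were near silent in the EKO-labelled line than in the CtrV line by this count, and no test was made of that difference.

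The other 14 genes at this limit kept 0.272% to 3.12% of their CtrV level. Hadh, an enzyme of mitochondrial fatty acid oxidation, had 303 to 343 counts in each CtrV library and 6 counts over the EKO-labelled libraries, so it had the same pattern as the chosen genes. Cr2, a complement receptor, had 1 count. Alox15, a lipoxygenase, was by far more abundant, at 1070 CPM in CtrV libraries and 26.5 CPM in the EKO-labelled ones. The others were Klhl14, Rab37, Ociad2, Itgae, Nkx3-2, Inhba, 4930426D05Rik, Klrb1f, Msi2, Zfp760 and Rai14.

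Ordered by the fitted log2 difference between lines, the 9 genes held places 1 to 12 of 14079, with Hadh at place 5, and Rab4a and Cr2 between Myb and Arhgap32. Ptf1a was the last of the 9, and Klhl14, at 4.61 CPM in CtrV libraries and 0.0564 CPM in the EKO-labelled ones, came directly after it. Havcr1 came next, at 0.758 and 0.00947 CPM, but its lowest CtrV library held 0 counts. Rab4a, a regulator of endosomal recycling, had no EKO-labelled count, and its CtrV mean was 0.852 CPM. There was no gap in values at the edge of the choice. Fitted differences of genes at or near 0 counts depend on the small count that the fit adds, so their order is approximate.

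**Figure D2:**
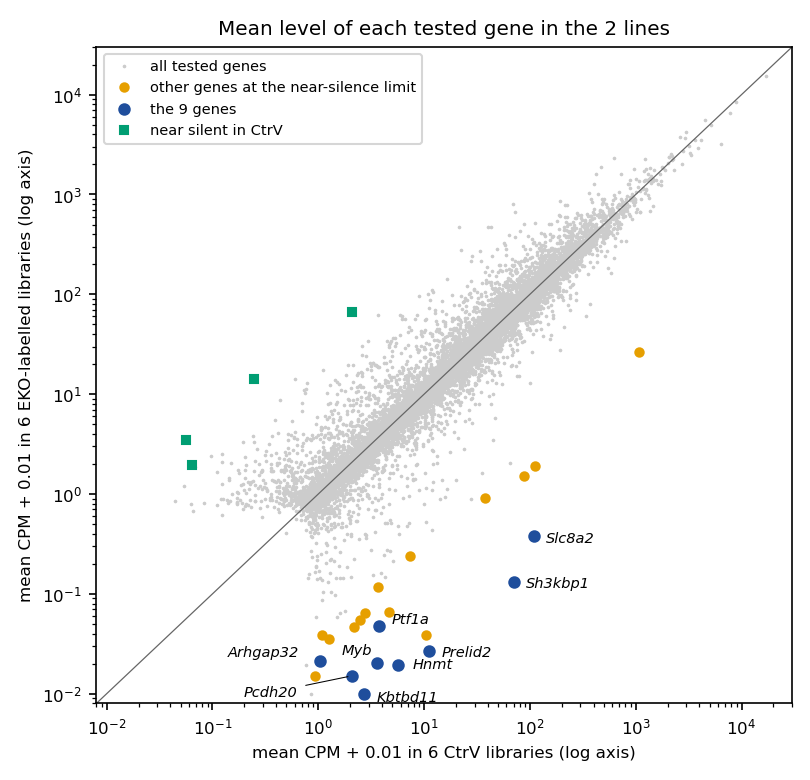
Mean CPM of all 14079 tested genes in the 6 CtrV (horizontal) and 6 EKO-labelled (vertical) libraries, on log axes after adding 0.01, with the diagonal as equal levels. The 9 genes (blue) lie at the lower edge together with the 14 other genes at the near-silence limit (orange), and the 4 genes near silent in CtrV cells are green squares.

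The genes were chosen by the difference between the lines and not by a response to OVA. Counts in every CtrV library were part of the choice, however. A gene silent in CtrV cells of either pulsing condition could therefore not be among them. None of the 9 genes passed the test for a difference between OVA-pulsed and unpulsed CtrV cells, in a comparison in which 0.00% of the 14079 tested genes were called by edgeR. The lack of calls is thus not particular to the 9. At an unadjusted p under 0.05 edgeR gave 231 genes and DESeq2, which also called none after adjustment, gave 44, and none of the 9 was among either. Every adjusted p of the 9 was 0.9997 (edgeR quasi-likelihood test). By sign 3 of the 9 were higher and 6 lower with OVA. The median absolute log2 difference was 0.02 over the 9 and 0.05 over all tested genes.

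The abundant genes gave the tightest limits. Slc8a2 was at 105.3 ± 9.45 CPM unpulsed and 111.6 ± 1.85 CPM OVA-pulsed (SD, n = 3), a log2 difference of 0.09 with a 95% interval of -0.07 to 0.24. Sh3kbp1 was at 70.9 ± 7.28 and 70.3 ± 10.3 CPM, with -0.02 (-0.13 to 0.10). Changes larger than these bounds lay outside the intervals of both genes. Hnmt was at 5.66 ± 0.329 and 5.73 ± 0.408 CPM, with 0.02 (-0.24 to 0.28), and Prelid2 at 11.3 ± 0.821 and 11.2 ± 1.78 CPM, with -0.03 (-0.24 to 0.19).

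The less abundant genes allowed wider intervals. Kbtbd11 was at 2.55 ± 0.363 and 2.87 ± 0.604 CPM (SD, n = 3) and higher in 3 of 3 replicate pairs, yet its log2 difference of 0.16 had an interval of -0.18 to 0.51. For Ptf1a it was -0.12 (-0.44 to 0.19), for Myb -0.01 (-0.37 to 0.34), for Pcdh20 -0.004 (-0.48 to 0.48) and for Arhgap32 -0.0005 (-0.68 to 0.68). The groups overlapped for each of these 5 genes. For Arhgap32 a log2 change of 0.5 in either direction lay inside the interval. In EKO-labelled cells Slc8a2 had 33 counts unpulsed and 37 OVA-pulsed, with a log2 difference of -0.01 (SE 0.28, edgeR adjusted p = 1), and Sh3kbp1 had 9 and 15, with 0.52 (SE 0.34, edgeR adjusted p = 1). The other genes had at most 7 counts in that line, too few to limit a response.

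**Figure D3:**
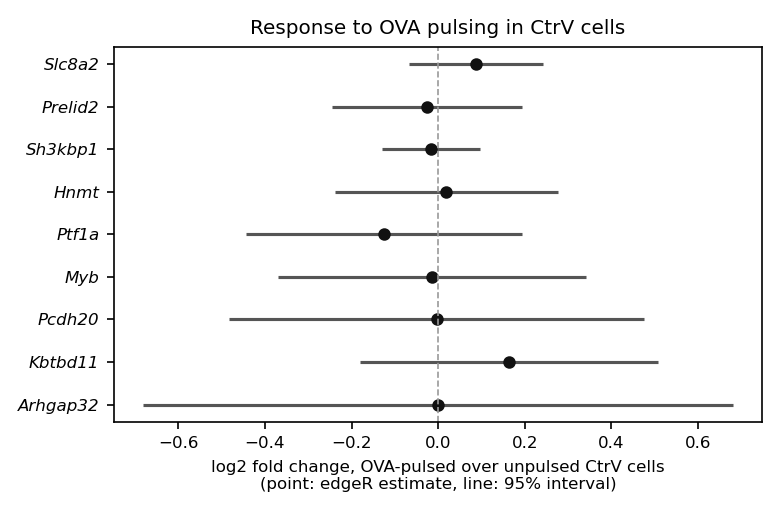
Log2 difference between OVA-pulsed and unpulsed CtrV cells for the 9 genes (points, edgeR estimate from 3 libraries a group) with 95% intervals (lines). All 9 intervals include 0, and the narrowest is that of Sh3kbp1 at -0.13 to 0.10 and the widest that of Arhgap32 at -0.68 to 0.68.

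The chromosomal surroundings of the 9 genes were examined through the 3 nearest tested genes on each side, 54 neighbours in all. Neighbours were ranked by the distance between the lower coordinates of the spans, and the gaps given here are between the nearest ends. The gaps ran from 2.31 kb for Kptn beside Slc8a2 to 4723 kb for Gm9247 beside Pcdh20, so near and distant genes are pooled. Of the 54 neighbours 17, or 31.5%, were lower in EKO-labelled cells, 15, or 27.8%, were higher and 22 did not pass the test. These shares were close to the 29.1% and 31.3% over all tested genes. The neighbours with the smallest gaps, 2.31 to 14.03 kb, were Kptn, Arhgef10, Napa and Meis3. All of these were called lower, Napa by a log2 difference of only -0.14, and all but Arhgef10 lie beside Slc8a2. The median log2 difference of the neighbours was -0.03. For 42 of the 54 the absolute log2 difference was under 0.5, and none reached the 32-fold limit of near silence. Of 35 protein-coding neighbours 11 were lower and 11 higher.

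At 2 places a neighbour was also much lower. Arhgef10, a guanine nucleotide exchange factor, lies 9.94 kb from Kbtbd11 on chromosome 8, and was at 2.18 ± 0.448 CPM in CtrV libraries and 0.214 ± 0.0749 CPM in the EKO-labelled ones (SD, n = 6; log2 difference -3.35, SE 0.20, edgeR adjusted p = 1.56e-07). Meis3, a homeobox factor, lies 14.03 kb from Slc8a2 on chromosome 7, and was at 8.32 ± 0.746 and 1.94 ± 0.215 CPM (log2 difference -2.10, SE 0.08, edgeR adjusted p = 6.25e-09). Kptn, on the other side of Slc8a2 with a gap of 2.31 kb, was lower by a small amount, from 17.3 ± 1.37 to 14.9 ± 1.71 CPM (log2 difference -0.22, SE 0.04, edgeR adjusted p = 0.00106). The nearest tested genes on either side of Slc8a2 were thus both lower, by less than Slc8a2 itself. A regional cause was not tested.

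Other neighbours moved the opposite way. Il1rn, the interleukin-1 receptor antagonist, lies 287.5 kb from Hnmt and was at 0.756 ± 0.286 CPM in CtrV libraries and 11.2 ± 4.04 CPM in the EKO-labelled ones (SD, n = 6; log2 difference 3.86, SE 0.16, edgeR adjusted p = 1.11e-08). Otud1, a deubiquitinase gene 210.3 kb from Ptf1a, had a log2 difference of 1.31 (SE 0.17), and C5ar2, a complement receptor gene 73.5 kb from Slc8a2, one of 1.65 (SE 0.10). Around Pcdh20, 5 of 6 neighbours were lower, by at most 0.48 on the log2 scale, and 4 of the 6 are processed pseudogenes or their transcribed form. Around Sh3kbp1 and Myb most neighbours did not pass the test. Pseudogene copies share reads with their parent genes, so their values are uncertain.

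**Figure D4:**
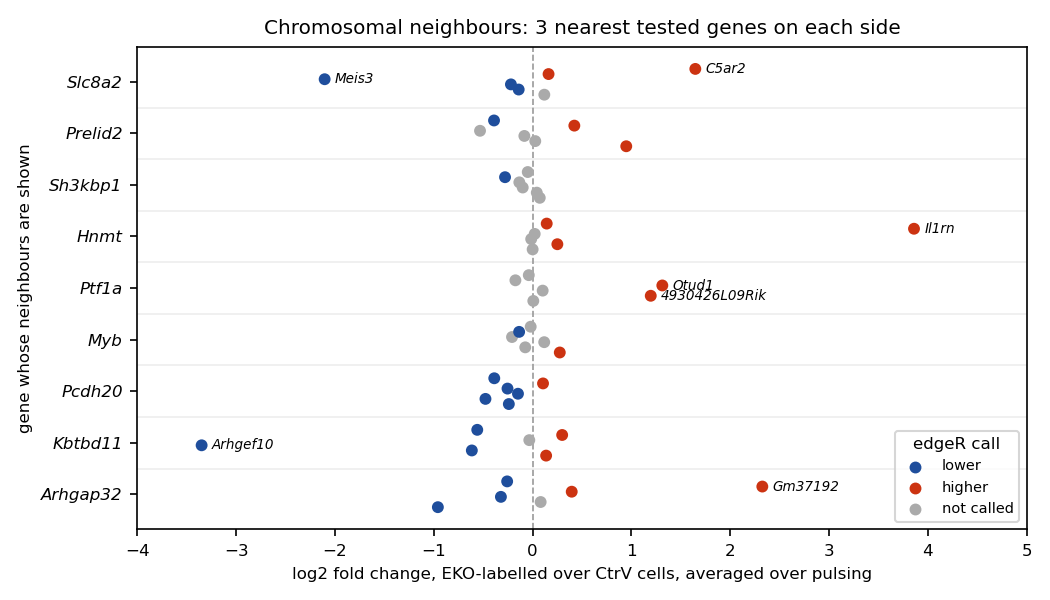
Log2 difference between EKO-labelled and CtrV cells (horizontal, edgeR, averaged over pulsing) for the 3 nearest tested genes on each side of each of the 9 genes, coloured by call at an adjusted p under 0.05. Most points lie within 0.5 of 0, with Arhgef10 beside Kbtbd11 at -3.35 and Meis3 beside Slc8a2 at -2.10 on the lower side, and Il1rn beside Hnmt at 3.86 on the upper side.

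The promoter windows, of 250 bases before and 50 after the start, were of mixed composition. Their CG dinucleotides numbered 40 for Myb, 34, 33, 6 and 2 in the windows of Sh3kbp1, 38, 3 and 2 in those of Arhgap32, 23 for Ptf1a, 10 for Slc8a2, and 4 each for Hnmt and Pcdh20. The median of 32841 windows was 7. A GC content over 50% together with a ratio of observed to expected CG over 0.6 was found in 5 of the 12 windows and in 33.3% of all windows. Windows 1 and 2 of Sh3kbp1 begin at bases 159627022 and 159627034 of chromosome X and overlap almost wholly. They are not independent, and the counts of windows here and for the motifs include both. Which of the alternative starts of Sh3kbp1 and Arhgap32 is used in these cells is not known from counts per gene. The Arhgap32 windows with 38 and 3 CG dinucleotides begin at bases 32032053 and 32016375 of chromosome 9. They lie upstream of the gene span given above, and the window with 2 lies inside it.

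Short motifs were searched on both strands, and a match is a description of letters only. The TATA box TATAAA was in 1 of the 12 windows, a window of Sh3kbp1, and in 13.6% of all windows. The GC box GGGCGG was in 6 of the 12, belonging to Sh3kbp1, Slc8a2, Myb and Arhgap32, and in 35.7% of all windows, and CCAAT was in 5 of the 12 and in 37.4% of all. The ETS core GGAAGT was in none of the 12 and in 23.8% of all windows. AACNG, the core of Myb sites, was in 10 of the 12 and in 80.3% of all, and the E-box CANNTG, the letters bHLH factors recognise, was in 7 of the 12 and in 72.3% of all. No motif was found in every window, and both of the frequent ones are frequent in promoters in general.

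**Figure D5:**
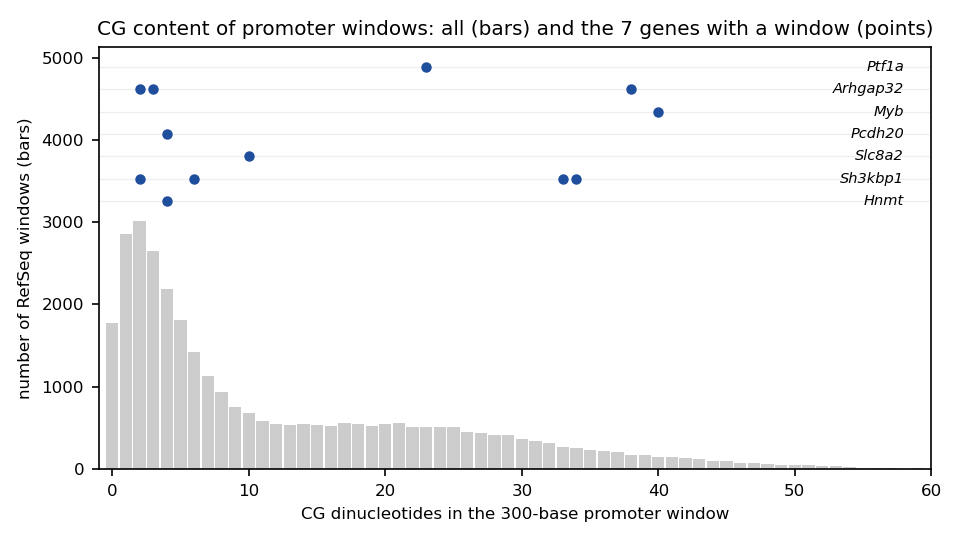
Number of CG dinucleotides in the 12 RefSeq promoter windows of 7 of the genes (points, 1 row for each gene) above the distribution over all 32841 windows (bars, number of windows). The points spread from 2 to 40 CG dinucleotides and do not gather at one end of the distribution, whose median is 7.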

How the data were processed

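The deposited table holds whole-number counts of reads per gene, not normalized by the authors. Per their methods and processing notes, reads were aligned to mm10 with STAR, sorted with SAMtools and counted on exon unions with featureCounts, with 1 location kept for reads that fitted several places equally. The strand setting is not given in the sources used here. Genes with a log2 CPM above 0 in at least 2 of the 12 libraries were tested, 14079 of 55401. A quasi-likelihood model of group and replicate number was fitted to all libraries with TMM scaling (edgeR 4.0.16, R 4.3.3), and p-values of all tested genes were adjusted together by the Benjamini-Hochberg method, with a limit of 0.05. The contrast of lines was averaged over pulsing. CPM used totals scaled by TMM. Ratios of summed counts have exact conditional 95% intervals for counting error only.

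Positions and symbols came from GENCODE M21 on GRCm38, which may differ from the annotation counted, and promoters from RefSeq. The 9 genes, the lists and the tests were chosen with earlier results of these data known. The total over the pathway lists includes 1 list that is not reported here. Named genes are the 9, Siglece, neighbours, the lowest and highest called gene of each list, the 10 lowest other genes and genes at the near-silence limit, and other list members were named with their values known. The replicate number is in the model because the methods name it as covariate. Deviations of same-numbered libraries correlated at 0.0775, 0.179 and 0.373 between the CtrV groups, at 0.706, 0.351 and 0.411 between the EKO-labelled groups, at 0.449, 0.292 and 0.289 between OVA-pulsed groups and at 0.0602, -0.0118 and 0.263 between unpulsed groups, for replicates 1, 2 and 3. Alternatives were DESeq2 1.42.0, RLE scaling, no filter, no replicate block, stricter limits, the CtrV libraries alone and leaving out each library, and, added after seeing the data, a newer quasi-likelihood fit and a fit without both EKO-labelled libraries of replicate 1. The fits were tested on simulated counts.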

Additional observations from a re-analysis of the deposited data

How the results depend on the processing

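None of the 9 genes passed the test for OVA in CtrV cells under any alternative run, with adjusted p between 0.853 and 1. Counts of called neighbours and pathway genes stayed within 1.5 times their value except with a limit of 1 on the absolute log2 difference, which left 2 neighbours lower and 5 higher, and 6 pathway genes lower and 9 higher. By construction this limit admits fewer genes. Without the replicate block 0 genes were called for OVA in CtrV cells, 123 at an unadjusted p under 0.05, and among the 9 genes the sign of Arhgap32 alone turned, to 0.00179. Of the called neighbours and pathway genes 11 lost their call without the block and no other gained one. Same-numbered libraries did not all deviate together, and the pairing is by number only. Signs of differences near 0 turned in some fits, always without a call. With DESeq2 Pcdh20 was at 0.00803 and Arhgap32 at 0.0411, with RLE scaling Arhgap32 was at 0.000306, and without the expression filter they were at 0.00483 and 0.0133. Leaving out each library in turn gave ranges of -0.10 to 0.11 for Prelid2, -0.0464 to 0.0693 for Hnmt, -0.0512 to 0.0247 for Sh3kbp1, -0.15 to 0.27 for Pcdh20, -0.16 to 0.13 for Myb, -0.26 to 0.45 for Arhgap32, 0.003 to 0.14 for Slc8a2, 0.09 to 0.23 for Kbtbd11 and -0.27 to -0.003 for Ptf1a. In those fits 17 to 19 neighbours were lower and 11 to 15 higher. Depth limits the EKO-labelled values: a gene at 0 was bounded with a floor of 3 counts, which is a setting, and levels at 0 to 3 counts have no resolved order.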
